A study of Mus musculus with 15 samples.

Results

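The genes described here are the semaphorins, plexins and neuropilins of the mouse, a family of axon guidance cues and their receptors. They were selected by symbol from the protein-coding genes of a normalized RNA-Seq table, as Sema3 to Sema7 genes, plexin A to D genes, Nrp1 and Nrp2. The selection gave 31 of the 19475 genes in the table, namely 20 semaphorins, 9 plexins and 2 neuropilins. All 31 fitting symbols of the GENCODE M21 annotation were in the table, and all 31 passed the filter for testing, a mean of at least 5 over the embryos.

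The study sequenced brain RNA of 15 C57BL/6J embryos at E16.5 to ask how the K228E mutation of Tbr1, a T-box transcription factor of early-born cortical neurons, changes the transcriptome. There were 5 WT, 5 heterozygous (Tbr1 +/K228E) and 5 homozygous (Tbr1 K228E/K228E) embryos, with 3 females and 2 males in each genotype. The mutation is a knock-in in exon 1 of Tbr1 between loxP sites, and its neomycin cassette was removed in the germline with protamine-Cre, so that it is not limited to a cell type. The tissue is forebrain in the text of the study and whole brain in the series description, and no source used here says that embryos were pooled.

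Semaphorins share an extracellular sema domain. Class 3 members are secreted and act mainly through neuropilins, which bind the ligand, and class A plexins, which carry the signal into the cell. Semaphorins of classes 4 to 6 span the membrane, Sema7a is held by a lipid anchor, and most of these bind plexins directly. The plexin tail acts on small GTPases of the Rap and R-Ras group, and the cytoskeleton of the growth cone then changes. In the developing forebrain these pairs steer cortical axons, thalamic axons and migrating interneurons, and in blood vessels they guide sprouting.

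As TBR1 binds T-box sites, the start-site windows of the members were searched for the letters AGGTGTGA and for the shorter core GGTGTG, which lies within the former, on both strands. The windows run from 250 bases before to 50 bases after each annotated start (RefSeq, GRCm38.p6). They were given for 26 members, in 37 windows, and Plxna1, Plxna4, Sema3b, Sema3f and Sema6a had no entry. The 8-letter motif was in 1 of the 37 windows (2.7%) and in 1.28% of 32851 windows of all genes, and the core was in 10 of 37 (27.0%) and in 19.05% of all. Some genes have several windows that can overlap. By gene, the core was in 9 of 26 members (34.6%) and in 21.35% of all genes. The median GC content was 63.7% in the member windows and 52.7% in all windows. Shown are the windows of Plxnd1, the member with the smallest p between genotypes, of Plxna2, which varied most closely with forebrain markers, and of Sema4a, the member that holds the 8-letter motif. They lie at chr6:115994956-115995255 (minus strand), chr1:194619579-194619878 (plus strand) and chr3:88461133-88461432 (minus strand), and capitals mark the core.
Plxnd1: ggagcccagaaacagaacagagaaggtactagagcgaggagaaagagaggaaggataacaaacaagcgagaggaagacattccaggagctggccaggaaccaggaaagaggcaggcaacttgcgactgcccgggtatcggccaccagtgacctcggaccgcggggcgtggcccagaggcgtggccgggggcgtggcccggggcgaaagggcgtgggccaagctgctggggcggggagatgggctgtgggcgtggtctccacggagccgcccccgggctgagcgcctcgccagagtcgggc
Plxna2: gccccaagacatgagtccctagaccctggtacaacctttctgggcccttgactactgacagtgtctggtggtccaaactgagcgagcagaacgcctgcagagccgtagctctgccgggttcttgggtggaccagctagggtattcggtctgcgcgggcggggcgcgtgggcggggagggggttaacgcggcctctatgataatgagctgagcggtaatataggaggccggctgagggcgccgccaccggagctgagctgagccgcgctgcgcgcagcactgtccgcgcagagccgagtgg
Sema4a: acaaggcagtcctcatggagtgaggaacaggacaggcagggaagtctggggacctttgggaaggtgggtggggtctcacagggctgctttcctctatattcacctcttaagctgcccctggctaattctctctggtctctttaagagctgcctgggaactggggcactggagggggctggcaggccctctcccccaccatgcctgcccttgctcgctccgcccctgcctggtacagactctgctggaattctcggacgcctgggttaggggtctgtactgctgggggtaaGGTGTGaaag
In the Sema4a window, 1 of several for this gene, the core begins at position 41 after the start. It completes the 8-letter motif, which begins at position 40. Neither the Plxnd1 nor the Plxna2 window holds the core, which says only that these letters are absent from 300 bases.

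Before the members were compared, the genotype labels were checked by Tbr1 itself. Its normalized read count was 3517, 4122, 4871, 2097 and 3079 in the WT embryos 1 to 5. It was 4738, 8543, 6337, 6743 and 4985 in Tbr1 +/K228E and 11530, 7148, 16015, 10671 and 11467 in Tbr1 K228E/K228E embryos. Every homozygous embryo exceeded every WT embryo (two-sided exact permutation p = 0.00794, the smallest that 5 against 5 embryos allow), while 1 heterozygous embryo lay within the WT range.

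The tissue label was checked with marker genes. All 7 forebrain genes and all 5 neuronal genes were above 0 in every embryo, with summed values of 16678 to 36726 and 196981 to 227031. Markers of neighbouring tissues varied widely between embryos of every genotype. The summed value of 13 meningeal genes ran from 2516 to 39124 in WT, from 7389 to 23796 in Tbr1 +/K228E and from 2621 to 27518 in Tbr1 K228E/K228E embryos. That of 7 choroid plexus genes ran from 1039 to 22171, from 6219 to 25530 and from 951 to 20059, and that of 17 Hox genes, which mark hindbrain and spinal cord, from 8.5 to 3286, from 3.0 to 3963 and from 9.1 to 576. None of the meningeal or choroid markers was at 0 in any embryo, whereas every Hox gene was at 0 in at least 1 embryo. WT embryo 3 and homozygous embryos 3 and 4 stood apart with the lowest meningeal levels. In such bulk samples fewer cells of a type and less RNA per cell cannot be told apart.

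The family was broadly transcribed at E16.5. To compare genes, normalized read counts were divided by exon length, and the resulting means over 15 embryos spanned 218-fold, from 1660 ± 146 per kb (SD, n = 15) for Plxna1 to 7.6 ± 3.3 for Plxnb3. The lowest single value of any member was a normalized read count of 20.1, for Plxnb3 in WT embryo 3. Class A plexins, the main partners of secreted and class 6 semaphorins, held 30.4% of the summed level per kb. Transmembrane class 4 semaphorins followed with 15.9%, class B plexins with 14.5% and class 6 semaphorins with 14.0%. The 2 neuropilins held 6.6%, and the 7 secreted class 3 semaphorins together held 6.1%.

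**Figure D1:**
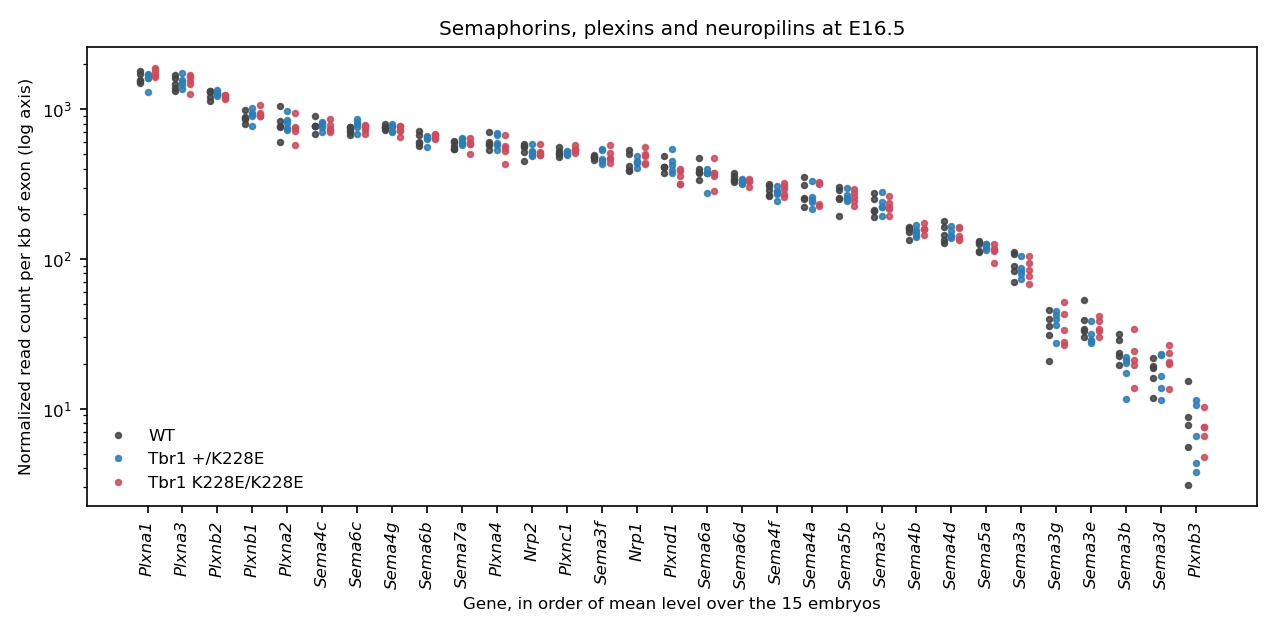
Normalized read count per kb of exon (log axis) of the 31 genes in order of their mean, with a point for each embryo coloured by genotype. The embryos of the 3 genotypes overlap for every gene, from Plxna1 at 1660 per kb on average to Plxnb3 at 7.6.

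Among the secreted ligands, Sema3f, a repellent read by Nrp2, was the highest at 486 ± 40.1 per kb (SD, n = 15), and Sema3c, which acts through both neuropilins, was at 229 ± 28.5. Sema3a, the classical repellent read by Nrp1, was at 87.8 ± 13.9. The other 4 were low, with 36.4 ± 8.5 for Sema3g, 34.8 ± 6.8 for Sema3e, 22.0 ± 6.1 for Sema3b and 18.6 ± 4.6 for Sema3d. Sema3a exceeded Sema3g in all 15 embryos, whereas Sema3g exceeded Sema3e in 8 of 15, so that this pair has no settled order.

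The membrane-bound ligands spanned a wide range, with 5 of 13 above Sema3f. Sema4c, a ligand of Plxnb2, had 773 ± 56.5, Sema6c had 753 ± 53.4 and Sema4g had 746 ± 38.6 per kb (SD, n = 15), and the order among these 3 changed between embryos. Sema6b at 641 ± 43.2 and Sema7a, a ligand of Plxnc1 and integrins, at 590 ± 39.6 came next. Sema6a and Sema6d, ligands of class A plexins, were at 375 and 335, with ranges over embryos of 276 to 476 and 304 to 374. The remaining class 4 and class 5 members ranged from 119 ± 9.2 for Sema5a, through Sema4d (148 ± 14.8), Sema4b (155 ± 10.8), Sema5b (261 ± 29.0) and Sema4a (274 ± 47.1), to 286 ± 22.7 for Sema4f.

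Receptors held the 5 highest places by mean, though Plxna2, the lowest of them, exceeded the ligand Sema4c in only 7 of 15 embryos. After Plxna1 came Plxna3 at 1518 ± 146, Plxnb2 at 1249 ± 61.6, Plxnb1 at 914 ± 76.0 and Plxna2 at 793 ± 127 per kb (SD, n = 15). Plxna1 exceeded Plxna3 in 11 of 15 embryos, and Plxna3 exceeded Plxnb2 in all 15. Plxna4 was at 588 ± 73.7, Plxnc1 at 522 ± 25.0 and Plxnd1, the receptor of Sema3e, at 404 ± 58.8. The neuropilins were close to each other, with Nrp2 at 526 ± 42.3 and Nrp1 at 459 ± 52.1. Of the 30 pairs of neighbours in the order of levels, 7 kept their order in every embryo, and the other pairs overlapped. The kit did not mark strand, and 970 exonic bases of Plxna1 (10.7% of its exons) overlap an antisense gene, and 334 bases of Sema4c (7.3%) overlap a transcript of the opposite strand, so reads of these overlaps cannot be assigned to a strand.

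No member passed the threshold between any 2 genotypes. An adjusted p under 0.05 (limma, with Benjamini–Hochberg correction over 16507 genes) was reached by 0 of 31 members between Tbr1 +/K228E and WT mice, against 0% of all genes. Between Tbr1 K228E/K228E and WT mice it was reached by 0 of 31 against 0.127% of all genes, and between homozygous and heterozygous embryos by 0 of 31 against 0.0788%. The smallest adjusted p of a member in the 3 comparisons was 0.999, 1 and 0.996. A fit over 0, 1 and 2 mutant alleles also called 0 of 31, against 0.0727% of all genes.

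As few genes passed at all, less strict counts were taken as well. An unadjusted p under 0.05 was reached by 0 members between Tbr1 +/K228E and WT mice, where 1.79% of all genes reached it. It was reached by 1 of 31 members (3.23%) between Tbr1 K228E/K228E and WT mice, against 3.23% of all genes, and by 1 of 31 between the mutant genotypes, against 3.30%. In both instances the member was Plxnd1. No member separated 2 genotypes without overlap between embryos, while 0.260%, 0.594% and 0.878% of all genes did so in the 3 comparisons in that order. The share of members was thus at or below the background in each of these counts.

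The differences were small in size. Between Tbr1 +/K228E and WT mice 14 members were higher and 17 lower, with a median log2 difference of -0.006 (all genes -0.002) and a median absolute difference of 0.035 (all genes 0.057). Between Tbr1 K228E/K228E and WT mice 16 were higher and 15 lower, with a median of 0.001 (all genes -0.002) and a median absolute difference of 0.067 (all genes 0.056), and between the mutant genotypes 14 were higher and 17 lower. For 28 of 31 members in each of the 3 comparisons, the 95% confidence interval lay within 1.5-fold in either direction. The exceptions were Sema3b and Plxnb3 in all 3, Sema3g in the first and Sema3d in the other two, which are 4 of the 5 lowest genes of the family. The widest interval was that of Plxnb3, a plexin of the oligodendrocyte lineage, whose difference between Tbr1 K228E/K228E and WT mice was 0.00 with an interval from -0.83 to 0.83. All comparisons with WT share the same 5 WT embryos, and the p-values measure the spread between embryos.

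**Figure D2:**
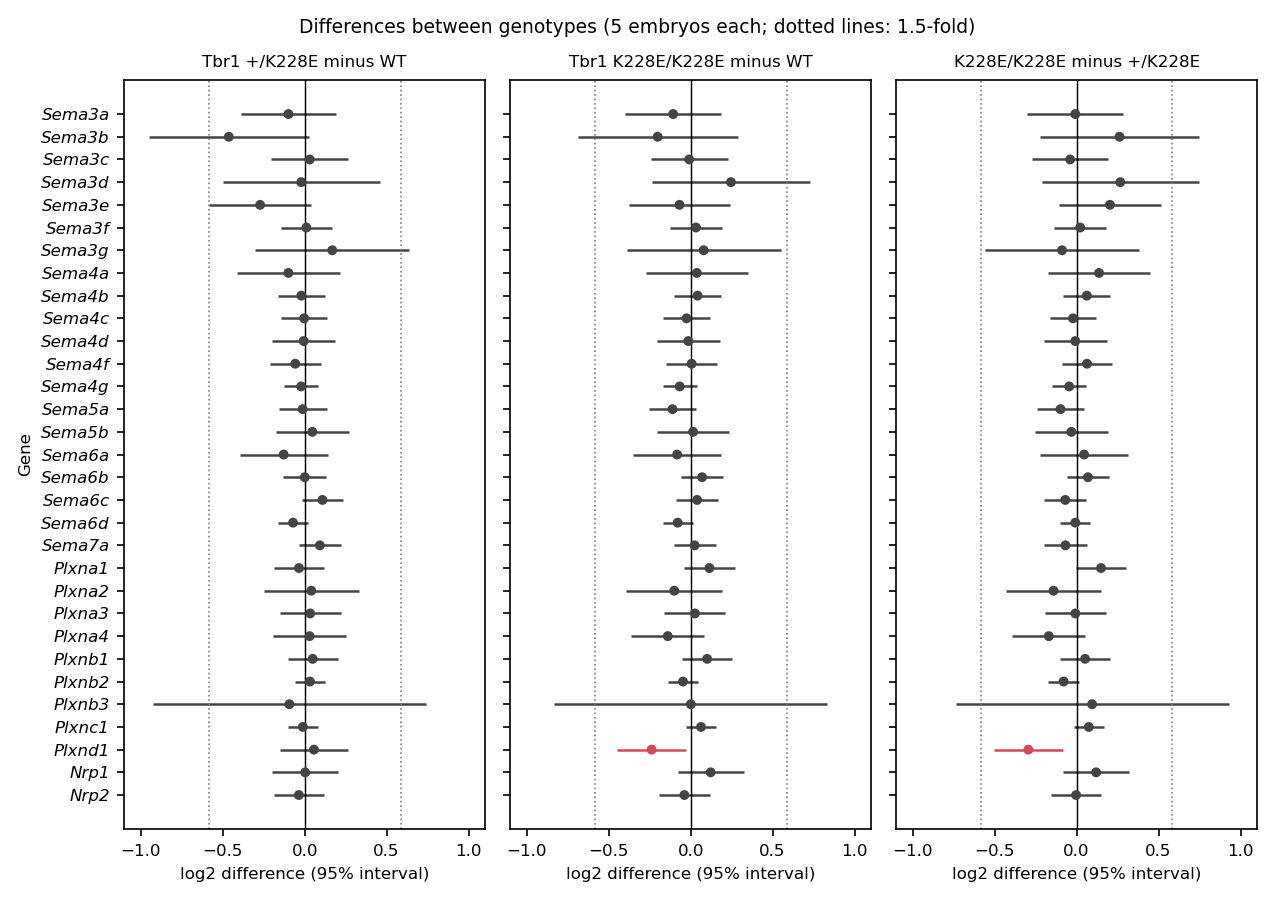
Log2 difference of each of the 31 genes in the 3 genotype comparisons, with points for the estimate, bars for the 95% confidence interval and dotted lines at 1.5-fold. Genes with an unadjusted p under 0.05 are red, which is Plxnd1 alone, at -0.24 against WT and -0.29 against Tbr1 +/K228E, and 28 of 31 intervals lie within the dotted lines in each panel.

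Plxnd1 (chr6:115954811-115995005, GRCm38, minus strand) encodes a plexin of endothelial cells and projection neurons. Its normalized read count was 2999, 3550, 2732, 3001 and 2988 in WT embryos 1 to 5. It was 2733, 3950, 3319, 3100 and 2858 in Tbr1 +/K228E and 2620, 2299, 2824, 2318 and 2900 in Tbr1 K228E/K228E embryos. The homozygous embryos held the lowest values, with 3 of 5 below every WT embryo, but the other 2 lay inside the WT range.

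The mean of Plxnd1 was 3054 ± 300 in WT, 3192 ± 480 in Tbr1 +/K228E and 2592 ± 278 in Tbr1 K228E/K228E mice (SD, n = 5 each). The log2 difference of homozygous from WT embryos was -0.24 (standard error 0.10, 95% interval -0.45 to -0.03). Its limma p was 0.0284 before and 1 after Benjamini–Hochberg adjustment, and the exact permutation p was 0.0317. From heterozygous embryos the difference was -0.29 (95% interval -0.50 to -0.09), with an exact permutation p of 0.0397 and a limma adjusted p of 0.996 with Benjamini–Hochberg correction. Heterozygous embryos did not differ detectably from WT (0.06, 95% interval -0.15 to 0.27).

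Several marker lists were lower in homozygotes, though no marker passed the test. Of 10 endothelial markers 9 were lower than in WT (median log2 difference -0.11) and 9 lower than in heterozygotes (median -0.23). Of 13 meningeal markers 11 and 13 were lower (medians -0.76 and -0.82). Against WT, 7 of 8 microglia, 5 of 5 Cajal-Retzius, 5 of 5 oligodendrocyte-lineage and 13 of 14 Hox genes were lower. Higher were 6 of 7 forebrain, 6 of 7 interneuron and 4 of 5 neuronal genes. Homozygous embryos 3 and 4 had the lowest endothelial levels of their genotype (mean log2 value 8.66 and 8.61). Plxnd1 was 2824 in embryo 3 and 2318 in embryo 4. Homozygous embryo 2, the lowest in Plxnd1 at 2299 and close to embryo 4, had an endothelial level of 9.11. The cause of the Plxnd1 difference was not tested. The homozygous difference of Plxnd1 from WT was -0.21 with the meningeal score as a covariate, -0.21 with the endothelial score, -0.27 with the Hox score and -0.25 with the forebrain score, where a score is the mean log2 value of the marker list. Without the 3 embryos of lowest meningeal score it was -0.27. The difference from heterozygotes, -0.29, was -0.24 with the meningeal and -0.25 with the endothelial score as a covariate. No setting brought the adjusted p of Plxnd1 between genotypes under 0.05, and the lowest, from an empirical null, was 0.590 (limma, Benjamini–Hochberg adjustment). Sema3e, the ligand that binds Plxnd1 without a neuropilin, was at 351 ± 86.2 in WT, 287 ± 42.6 in Tbr1 +/K228E and 330 ± 43.3 in Tbr1 K228E/K228E mice (SD, n = 5 each). Its values in the 3 genotypes overlapped, and its log2 difference from WT was -0.27 (95% interval -0.58 to 0.04) in heterozygotes and -0.07 (95% interval -0.38 to 0.24) in homozygotes. The former was -0.14 without WT embryo 4.

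**Figure D3:**
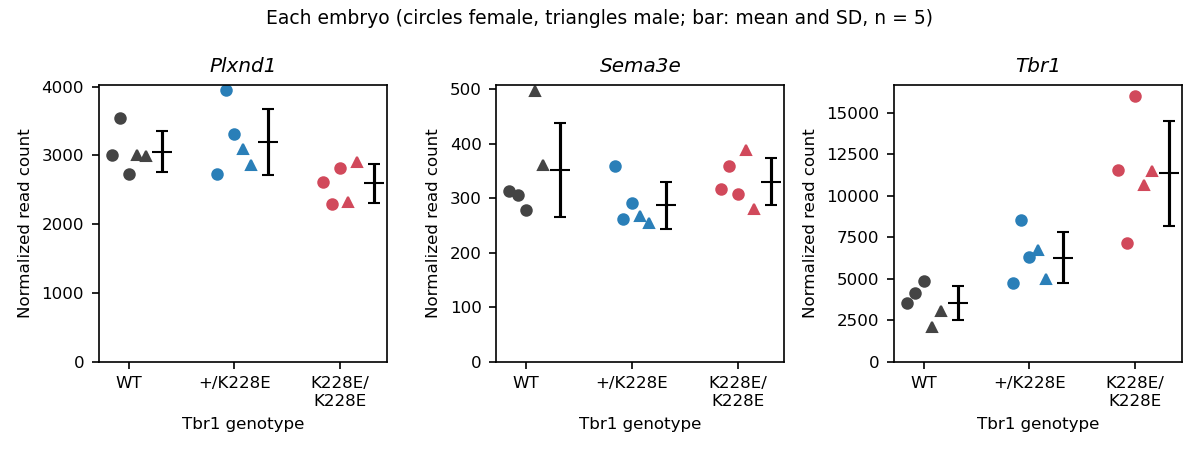
Normalized read counts of Plxnd1, Sema3e and Tbr1 in each embryo by genotype, with circles for females, triangles for males and bars for the mean and SD of 5 embryos. Plxnd1 reaches 2900 at most in homozygotes against 3550 in WT, Sema3e overlaps between the genotypes, and Tbr1 runs from 2097 in a WT embryo to 16015 in a homozygote.

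By the exact permutation test alone, a p under 0.05 was reached by 0 of 31 members between Tbr1 +/K228E and WT mice, against 2.38% of all genes. It was reached by 1 of 31 (3.23%) between Tbr1 K228E/K228E and WT mice, against 2.99%. Between the mutant genotypes it was reached by 3 of 31 (9.68%), against 4.10%, so that here the share of members was above the background. The members named next were chosen after their values were seen. Sema3b, a secreted ligand, had 120 ± 23.7 in WT and 88.0 ± 20.4 in Tbr1 +/K228E mice (SD, n = 5), a log2 difference of -0.46 (95% interval -0.95 to 0.02, exact permutation p = 0.0556), which was -0.30 without heterozygous embryo 4. Plxna1 was higher in homozygous than in heterozygous embryos by 0.15 (95% interval -0.01 to 0.30, exact permutation p = 0.0635), or by 0.08 without heterozygous embryo 2. Plxnb2, which acts in progenitors, had a log2 difference of -0.08 in the same comparison (95% interval -0.17 to 0.01, exact permutation p = 0.0238). Plxnc1, the receptor of Sema7a, had 0.07 (95% interval -0.02 to 0.16, exact permutation p = 0.0476). None of the 4 passed (limma, Benjamini–Hochberg adjusted p of 0.999 for Sema3b and 0.996 for the others).

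The partners of the family inside and at the surface of the cell were tested with them, as 59 genes. The list held 15 co-receptors such as L1cam and Nrcam, 5 collapsin response mediators, 3 Mical enzymes, 11 small GTPases, 7 of their exchange factors and activators, 14 kinases and adaptors and 4 genes of cofilin control. All 59 were tested, and 0 passed in each of the 3 comparisons (smallest adjusted p 0.999, 1 and 0.996, limma, Benjamini–Hochberg adjustment). Between Tbr1 K228E/K228E and WT mice 33 were higher and 26 lower, with a median log2 difference of 0.006. Met, a receptor tyrosine kinase that pairs with class B plexins, was the sole gene of the list with an unadjusted p under 0.05, between homozygous and heterozygous embryos, at a log2 difference of 0.43 (95% interval 0.00 to 0.85).

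Sex gave no member call either. Between males and females 0 of 31 members passed, against 0.0788% of all genes (limma with genotype as a covariate and Benjamini–Hochberg correction). An unadjusted p under 0.05 was reached by 2 members (6.45%), against 11% of all genes. Plxna1 was higher in males by 0.14 on the log2 scale (95% interval 0.03 to 0.25) and Sema6b by 0.11 (95% interval 0.01 to 0.20). Whether the difference between sexes itself varied with genotype was examined in 62 tests. For heterozygous against WT embryos, 5 of 31 members had an unadjusted p under 0.05, a larger share than the 6.70% of all genes. For homozygous against WT embryos, 2 of 31 (6.45%) had one, against 6.46%. The smallest adjusted p was 0.734 with limma and Benjamini–Hochberg correction.

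While the genotypes hardly differed, single embryos of a genotype differed clearly, and for several members they did so with forebrain markers. The forebrain score, the mean log2 value of Emx1, Emx2, Neurod6, Lhx2, Dlx1, Dlx2 and Bcl11b, ran from 10.47 to 11.60 in WT, from 11.01 to 11.57 in Tbr1 +/K228E and from 10.73 to 11.54 in Tbr1 K228E/K228E embryos. Its genes did not all share their extremes. WT embryo 4 was the lowest of all embryos in Emx1, Emx2, Neurod6 and Lhx2. Homozygous embryo 2 was the lowest in Dlx1 and Dlx2 but the highest in Emx2, so the score does not follow a single quantity. The fit on this score was added after the data had been examined. With genotype as a covariate, the slope on the score passed for 13 of 31 members (41.9%), against 20.5% of all genes (adjusted p under 0.05, limma, Benjamini–Hochberg adjustment). Of the 13 members, 7 rose with the score and 6 fell. WT embryo 4, with the lowest forebrain score, had a Hox score of 5.94. Homozygous embryo 2, the next lowest at 10.73, had a Hox score of 2.78. Heterozygous embryo 1, with the highest Hox score (6.85), had a forebrain score of 11.01, the lowest of its genotype. WT embryo 3 and homozygous embryo 3, among the 3 with the highest forebrain score, had meningeal scores of 5.37 and 5.90. Heterozygous embryo 2, also among these 3, had a meningeal score of 9.74. The part of these tissues in the slopes was not tested. Without the 3 embryos of lowest meningeal score 8 members passed, against 14.8% of all genes. These were Plxna1, Plxna2, Plxna4, Sema3e, Sema4f, Sema6a and Sema6b of the 13, and Plxnd1, which was not among them.

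Plxna2, a receptor of class 6 and class 3 semaphorins at chr1:194618218-194816869 (GRCm38, plus strand), followed the score most closely. Its normalized read count was 13098, 14405, 18193, 10403 and 13253 in WT, 12537, 16726, 13908, 14551 and 12829 in Tbr1 +/K228E and 13004, 9970, 16148, 12344 and 12938 in Tbr1 K228E/K228E embryos 1 to 5. WT embryo 3, heterozygous embryo 2 and homozygous embryo 3 had the highest value of their genotype, and WT embryo 4, heterozygous embryo 1 and homozygous embryo 2 the lowest. The score and Tbr1 had their highest and lowest embryos at the same places. The slope of Plxna2 was 0.74 per log2 unit of the score (95% interval 0.61 to 0.86, adjusted p = 3.30e-06, limma, Benjamini–Hochberg adjustment), and that of Tbr1 was 1.25 (95% interval 1.05 to 1.46).

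Other receptors and ligands rose with the score at lower slopes. Plxna4, a receptor of Sema6a and Sema3a, had a slope of 0.47 (95% interval 0.27 to 0.67), and Plxnb1, the receptor of Sema4d, had 0.30 (95% interval 0.16 to 0.45). Nrp1 had 0.35, Sema5a 0.25, Sema7a 0.23 and Sema4c 0.23 per log2 unit. Sema3c, with a slope of 0.38, lay just outside the threshold (adjusted p = 0.0506, limma, Benjamini–Hochberg adjustment). The 7 members that passed thus rose less than proportionally with the forebrain markers.

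The members that fell included Sema6a, the transmembrane ligand that Plxna2 and Plxna4 bind. Its normalized read count was 3489, 3334, 2946, 4140 and 3314 in WT, 3294, 2419, 3280, 3488 and 3309 in Tbr1 +/K228E and 3160, 4176, 2497, 3271 and 3278 in Tbr1 K228E/K228E embryos 1 to 5. The embryos that were highest in Plxna2 were the lowest in Sema6a in each genotype. The slope was -0.61 per log2 unit of the score (95% interval -0.81 to -0.40, adjusted p = 6.12e-04, limma, Benjamini–Hochberg adjustment). Sema3e fell with a slope of -0.63 (95% interval -0.92 to -0.34), Plxna1 with -0.28, Sema4f with -0.28, Sema6b with -0.21 and the scarce Plxnb3 with -1.39.

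**Figure D4:**
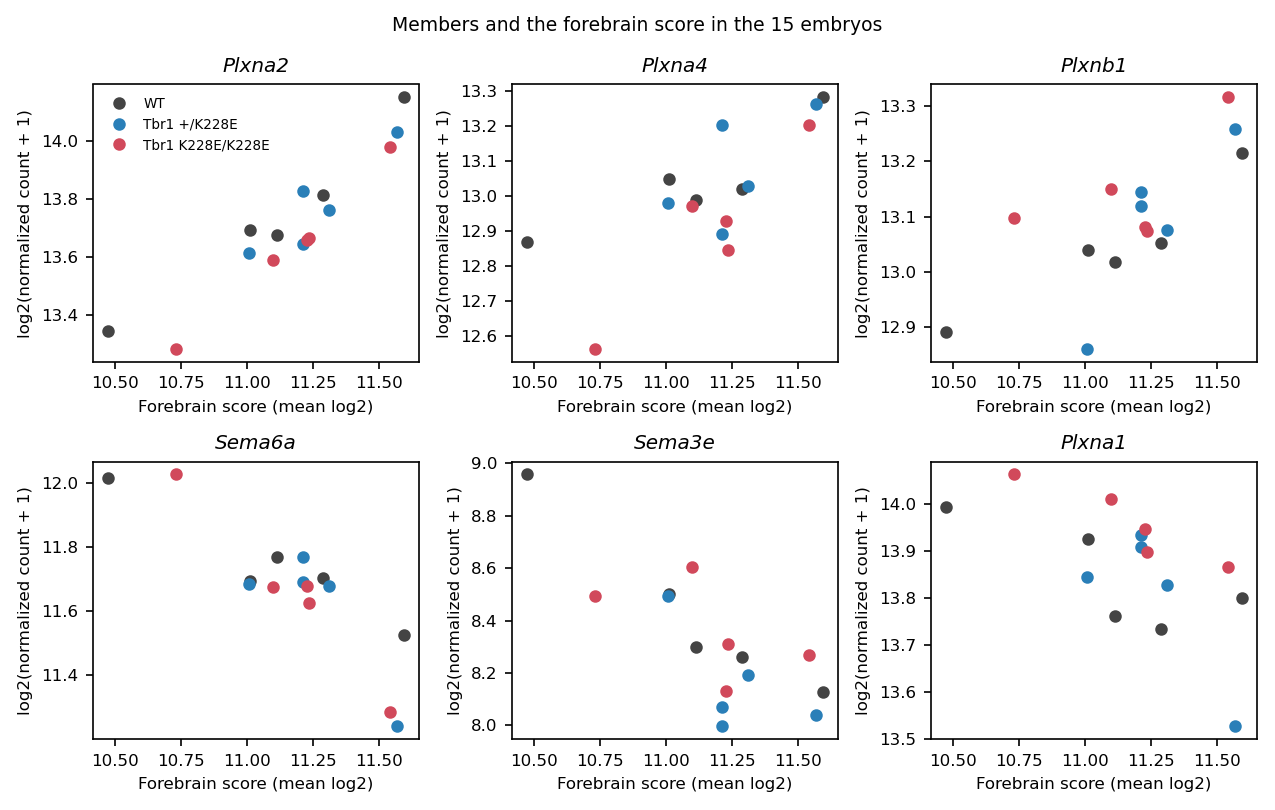
Log2 values of 6 members against the forebrain score (mean log2 value of 7 forebrain genes) in the 15 embryos, coloured by genotype. Plxna2, Plxna4 and Plxnb1 rise with the score and Sema6a, Sema3e and Plxna1 fall, with WT embryo 4 and homozygous embryo 2 far to the left at 10.47 and 10.73.

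These slopes depended in part on single embryos. Plxna2, Plxna4, Plxnb1 and Sema6a passed in all 15 fits that left out 1 embryo, and the same 4 passed without the 2 embryos farthest from the median score, WT embryo 4 and homozygous embryo 2, when the count of members fell from 13 to 4 and that of all genes from 3376 to 1403 of 16507. Without WT embryo 4 alone the count was 5, against 11.7% of all genes. Without the 3 embryos of lowest meningeal score Plxnb1 (slope 0.25), Nrp1, Sema5a, Sema7a, Sema4c and Plxnb3 did not pass. Plxnd1, not among the 13, passed in that fit and without WT embryo 3 alone. Sema3e and Plxna1 lost the call in 1 of the 15 fits, without WT embryo 4, with slopes of -0.48 and -0.31. Sema7a lost it in 2, without homozygous embryo 2 or 3, with slopes of 0.16 and 0.20. Sema6b and Sema4c were the least steady and passed in 2 and 7 of the 15 fits.

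Accounting for the score moved the genotype differences of Plxna2, but brought no call. Without it, the log2 difference of homozygous from WT embryos was -0.10 (95% interval -0.39 to 0.19). With it as a covariate the difference was -0.15, with an adjusted p of 0.280, and the slope per mutant allele was -0.08, with an adjusted p of 0.270 (limma, Benjamini–Hochberg adjustment). The score averaged 11.10 in WT, 11.26 in Tbr1 +/K228E and 11.17 in Tbr1 K228E/K228E embryos. No member passed with this covariate in any genotype comparison. The homozygous difference without the covariate was 0.00 when WT embryo 3 was left out.

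Blood vessel markers moved with 2 secreted semaphorins. The endothelial score, the mean log2 value of 10 genes such as Cldn5, Cdh5 and Pecam1, ran from 8.59 to 9.45 in WT, from 8.85 to 9.45 in Tbr1 +/K228E and from 8.61 to 9.56 in Tbr1 K228E/K228E embryos. Its slope passed for 2 of 31 members (6.45%), which is near the 7.57% of all genes (limma, Benjamini–Hochberg adjustment). The normalized read count of Sema3g, a semaphorin of arterial endothelium, was 208, 179, 94.5, 140 and 162 in WT, 180, 165, 203, 125 and 192 in Tbr1 +/K228E and 195, 151, 127, 121 and 234 in Tbr1 K228E/K228E embryos 1 to 5. WT embryo 3 and homozygous embryos 3 and 4, the lowest in vessel and meningeal markers, were among the 5 lowest in Sema3g, and homozygous embryo 5, with the highest endothelial score, was the highest.

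Sema3g had a slope of 1.01 per log2 unit of the endothelial score (95% interval 0.73 to 1.29, adjusted p = 8.17e-05, limma, Benjamini–Hochberg adjustment). In this fit Sema3g changed nearly in proportion to the vessel markers, but with quantile normalization its slope was 0.72. Sema3b had a slope of 0.85 (95% interval 0.40 to 1.30), and Sema3d, another secreted member, had 0.62 without passing (adjusted p = 0.201, limma, Benjamini–Hochberg adjustment). The smallest p among falling slopes were those of Sema4d at -0.26, Plxna3 at -0.25 and Sema4c at -0.18, none of which passed. Plxnd1 had 0.23 (95% interval -0.03 to 0.48). Sema3g passed in all 15 fits that left out 1 embryo, and Sema3b in 12 of 15, losing the call without heterozygous embryo 4, homozygous embryo 3 or homozygous embryo 5, with slopes of 0.73 in each.

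The meningeal score, which ran from 5.37 to 10.17 in WT, from 7.93 to 9.92 in Tbr1 +/K228E and from 5.69 to 10.14 in Tbr1 K228E/K228E embryos, gave a like picture. Its slope passed for 3 of 31 members (9.68%), against 7.12% of all genes. These were Sema3g at 0.20, Sema3b at 0.17 and Sema4d at -0.07 per log2 unit (adjusted p = 2.01e-04, 0.0346 and 0.0362, limma, Benjamini–Hochberg adjustment). Next in order were Sema3d at 0.13, Plxna3 at -0.06 and Sema4c at -0.04. The meningeal and endothelial scores were lowest in the same 3 embryos, so that their slopes cannot be told apart here. Sema3b passed in 9 and Sema4d in 6 of the 15 fits without 1 embryo, with slopes from 0.14 to 0.21 and from -0.07 to -0.06, and the count of members fell to 1, Sema3g, without WT embryo 1, heterozygous embryo 3 or homozygous embryo 1, 3 or 5.

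The Hox score ran from 0.39 to 5.94 in WT, from 0.12 to 6.85 in Tbr1 +/K228E and from 0.37 to 3.02 in Tbr1 K228E/K228E embryos. Its slope passed for 2 of 31 members (6.45%), against 1.60% of all genes. Sema6c had -0.04 and Plxnb1 -0.04 per log2 unit (both with an adjusted p of 0.0400, limma, Benjamini–Hochberg adjustment), and Plxna3 had -0.05 without passing. In the other direction Plxnb3 had 0.20, Sema3e 0.07 and Sema6a 0.04, none of which passed. Sema6c and Plxnb1 passed in 4 each of the 15 fits without 1 embryo, while their slopes stayed between -0.0399 and -0.0319 and between -0.0486 and -0.0386. The count was 0 without any of WT embryos 1, 3 and 4, heterozygous embryos 2 and 4 and homozygous embryos 1 to 4. It was 1 without WT embryo 2 (Sema6c), heterozygous embryo 1 (Nrp1) or homozygous embryo 5 (Plxnb1). It was also 0 without both heterozygous embryo 1 and WT embryo 4, the embryos of highest Hox score, when 0.133% of all genes passed.

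**Figure D5:**
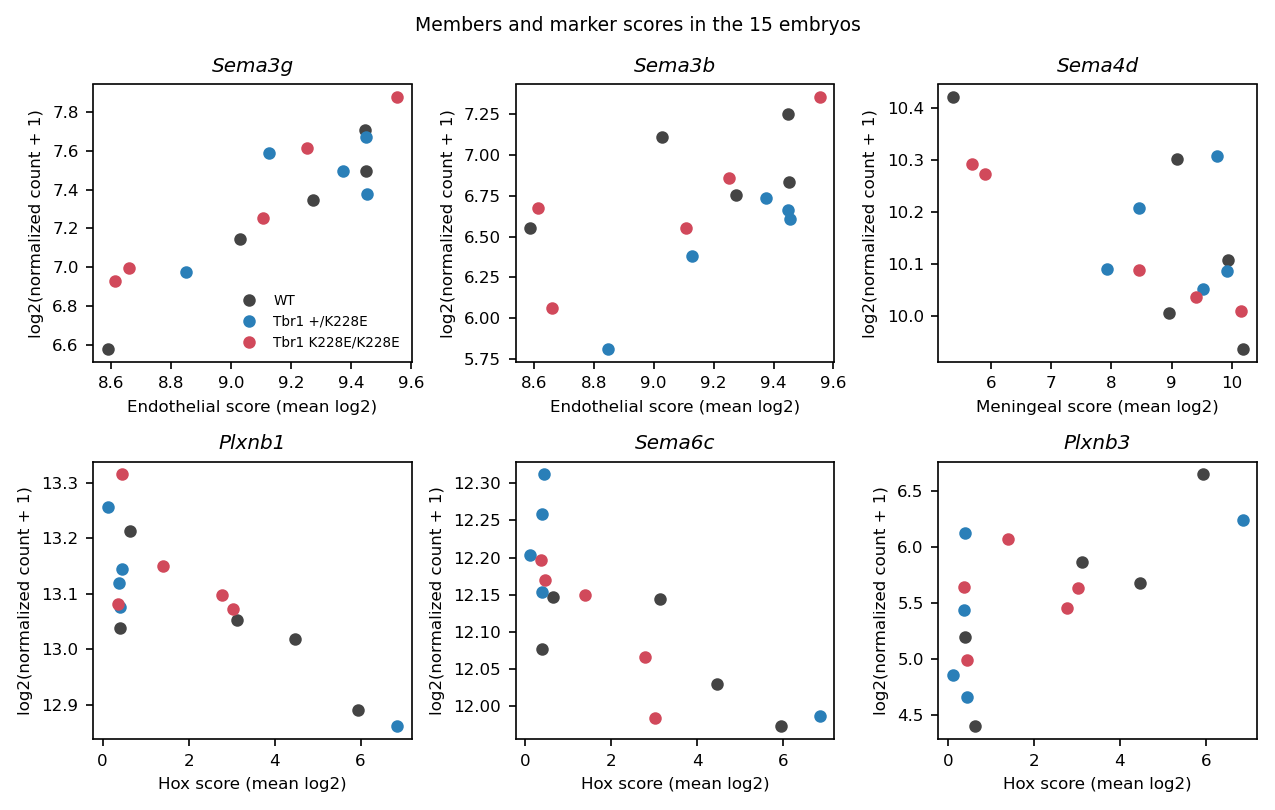
Log2 values of members against the marker score with which they passed, in the 15 embryos coloured by genotype, with Plxnb3, which did not pass, as a comparison. Sema3g and Sema3b rise with the endothelial score, Sema4d falls with the meningeal score, and the 2 embryos with a Hox score above 5 are the lowest in Plxnb1 and among the 3 lowest in Sema6c.

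The spread within genotypes was compared as well. Against the 500 genes of most similar mean, the SD of Plxna2 on the log2 scale (0.24) lay at percentile 96.2, that of Sema6a (0.22) at 95.6, that of Sema4a (0.26) at 95 and that of Sema3a (0.24) at 93.6. Plxna4 and Plxnd1 lay at 93.2 and 90.4. The steadiest members were Plxnc1, Sema6d and Plxnb2, at percentiles 23.4, 24.4 and 27.2.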

How the data were processed

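RNA-Seq was carried out on 15 brains at E16.5 (TruSeq RNA v2, HiSeq paired-end reads). According to the methods and the submitters' processing notes, the authors quantified transcripts with Salmon 0.11.2 on GRCm38, imported gene counts to R 3.5.3 with tximport and divided them by DESeq2 1.22.2 size factors. Each deposited value is thus a normalized read count (a scaled signal) of a gene in an embryo. Column sums were 30.5 to 31.8 M (M, mega), which the scaling makes alike, and sequencing depth, inferred from how low values are spaced, was 26.3 to 38.2 M reads with a median of 30.0 M. No count model was fitted, because the deposited values are divided by size factors and are not whole reads. In units of 1 read, 70.0% of low values lay within 0.1 of a whole number. The sequencing depth limits mainly Plxnb3 and the low class 3 semaphorins. The table was matched to GENCODE M21 by Ensembl identifier (19469 of 19475).

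Log2(value + 1) of 16507 genes with a mean of at least 5 was fitted with limma 3.58.1 (R 4.3.3, eBayes with trend) over all 15 embryos, with Benjamini–Hochberg correction and a threshold of 0.05. Slopes on the scores had genotype as a covariate. Fold changes are on this scale, which understates those of low genes. Single genes were compared by two-sided exact permutation tests. The procedure was tested on simulated data. Groups, sex and replicate numbers came from the labels.

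The members and gene lists were chosen with earlier results of these data known. Every member was named with its level, values per embryo were to be given for Tbr1 and members with an unadjusted p under 0.05 between genotypes, pathway genes were named by the same p, and the 3 members with the smallest p in each direction were named for each slope. The forebrain slope, its members, and the per-embryo values of Plxna2, Sema6a and Sema3g were chosen once values had been seen. Some markers of the forebrain list are not reported here and were left out of its score for reasons unrelated to their values. The alternatives were pseudocounts of 0.1 and 10, a mean of at least 50 or no filter, upper quartile and quantile rescaling, sex or a marker score as a covariate, a replicate block, the 2 compared genotypes alone, an empirical null and leaving out embryos.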

Additional observations from a re-analysis of the deposited data

Results flagged for a closer look

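Within each genotype, an embryo was marked where its gap to the nearest of the other 4 exceeded Dixon's 95% critical value. Of 93 groups of 5 embryos, 4 were marked, and chance marks about 5% of groups. Nrp2 was 6969 in homozygous embryo 3, while the other 4 homozygous embryos lay between 5833 and 6097. Heterozygous embryo 2 gave the other 3 marks. Its Plxna1 was 11801 (others 14544 to 15663), its Sema6a was 2419 (others 3280 to 3488) and its Sema6b was 2227 (others 2523 to 2639). Both embryos had the highest forebrain score of their genotype, 11.57 in heterozygous embryo 2 and 11.54 in homozygous embryo 3, and whether this bears on the marked values was not tested.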

How the results depend on the processing

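Over 125 alternative fits of the genotype, allele number and sex comparisons, 0 gave a member call, and the smallest adjusted p of a member was 0.107 between sexes and 0.270 between genotypes or over allele number (limma with Benjamini–Hochberg correction). Leaving out 1 embryo at a time gave 0 member calls in each of these comparisons. With the replicate block, members called stayed at 0, and calls among all genes were 0, 16, 2 and 7 (heterozygous against WT, homozygous against WT, homozygous against heterozygous, allele number) in place of 0, 21, 13 and 12. Embryos that share a number share their sex but no stated litter, and r between their deviations ran from -0.232 to 0.506. Embryos of different numbers were not compared, so whether the numbers pair embryos was not tested. An empirical null called 42 genes between homozygous and WT embryos in place of 21.

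With quantile normalization, the count of members fell to 1 for the meningeal, the endothelial and the Hox slope. For the Hox slope it was 6 with sex as a covariate and 0 without the 2 farthest embryos, when 8.34% and 0.133% of all genes passed in place of 1.60%. Without the 3 embryos of lowest meningeal score, a setting added after the data had been examined, it was 1 for the endothelial, 0 for the Hox and 8 for the forebrain slope, which gave 4 without its 2 farthest embryos. Leaving out 1 embryo gave 1 to 4 members for the meningeal, 1 to 2 for the endothelial, 0 to 2 for the Hox and 5 to 13 for the forebrain slope.

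Signs turned for Plxnd1 between heterozygous and WT embryos (-0.0233 without heterozygous embryo 2, the lowest of -0.0233 to 0.1122 over fits without 1 embryo) and for the endothelial slope of Sema4d (0.0103 without the 3 embryos). They also turned for Plxna2 between heterozygous and WT embryos (-0.0399 with the Hox score and -0.0813 with the forebrain score as a covariate, -0.0575 to 0.1441 without 1 embryo) and between homozygous and WT embryos (-0.1981 to 0.0035 without 1 embryo, positive without WT embryo 3). The cause was not tested, and none of these values passed the threshold.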
